A study of Bos taurus with 60 samples.

Results

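The 100 genes described here were those whose transcripts, in the uterine endometrium of beef heifers, were on average lower in 1 of 4 dietary groups, the n-3 PUFA supplemented heifers on a low plane of nutrition, than in each of the others. They were selected on measured group means: genes were ranked by the lowest of the other 3 group means minus the PUFA_Low mean, in log2 CPM (counts relative to the TMM-adjusted size of the library, prior count 2). The genes eligible for the ranking had a mean log2 CPM of at least 1, a maximum less than 3 above their median and a correlation between -0.4 and 0.4 with gene ENSBTAG00000008471, and were not among the 100 genes with the most counts. Of 24616 genes in the counts, 14363 passed the expression filter, 10340 met these limits and the 100 with the largest gap were taken.

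Nulliparous crossbred heifers were fed a concentrate-based diet for 30 days before insemination with either a palmitic acid supplement (control) or an n-3 PUFA supplement based on fish oil. They were then kept for 16 days either on the same high plane of nutrition or on a low plane below their maintenance requirement, with the lipid supplement maintained. Endometrium was taken at slaughter and sequenced in 60 heifers, with 14 in the CON_High group, 14 in the CON_Low group, 17 in the PUFA_High group and 15 in the PUFA_Low group. All heifers were synchronised and inseminated with semen of 1 sire, and each group held pregnant and non-pregnant heifers, whose individual status was not used here. The labels of the libraries give these sizes, whereas the protocol text given with the same libraries places 17 n-3 PUFA heifers on the restricted and 15 on the unrestricted diet. The methods of the study state the sizes in the labels, while its tallies of pregnant and non-pregnant heifers add up to those in the protocol text. Total counts ranged from 9635801 to 13943813 per heifer.

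The endometrium at this stage consists of luminal and glandular epithelium, stroma, vessels and immune cells, and its secretions nourish the elongating conceptus before attachment. In ruminants the conceptus signals its presence with interferon tau, which raises many endometrial transcripts, and n-3 fatty acids enter membrane phospholipids and alter the supply of prostaglandin precursors. The genes in the counts carry Ensembl identifiers, and 0 of 24616 could be paired with a symbol from the gene table used. The 2 genes with the largest gap are therefore given by identifier and the others by their rank, and neither the roles of the genes nor the markers of the tissue could be examined here. In a bulk sample, fewer cells of a type and less RNA per cell cannot be told apart.

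The gaps were moderate and of similar size. The median gap was 0.52 on the log2 scale, a 1.44-fold difference, and it ranged from 0.46 to 0.91, with 26 of the 100 genes above a 1.5-fold difference. The genes just inside the limit, ranked 98 to 100, had gaps of 0.466, 0.466 and 0.464, and those ranked 101 to 103 had gaps of 0.463, 0.463 and 0.461, so the boundary did not separate 2 kinds of gene. Among the 10340 eligible genes, 39.99% had a PUFA_Low mean below the other 3. The lowest of the other 3 means was that of the CON_High group for 63 genes, of the CON_Low group for 21 and of the PUFA_High group for 16. These values chose the genes and carry no test.

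The same choice fixed the direction of every comparison with the PUFA_Low group. For reference, edgeR's quasi-likelihood test over all 14363 genes called 84 of the 100 lower in the PUFA_Low than in the PUFA_High group (adjusted p under 0.10 and fold change above 1.5), where 3.17% of all genes tested were called lower. It called 43 lower than in the CON_Low group (background 1.04%) and 50 with a plane effect that was lower under n-3 PUFA than under the control diet (background 3.58%). The median log2 fold change of the 100 genes was -0.71 against the PUFA_High and -0.59 against the CON_Low group. Of all genes, 35.6% had an unadjusted p-value under 0.05 between the PUFA groups and 29.1% for the interaction, where 96 and 63 of the 100 did. All 100 had a log2 fold change below 0 in each of these comparisons, as had 53.9%, 51.6% and 51.7% of all genes. These counts describe the selection, and both comparisons share the PUFA_Low heifers.

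The gene with the largest gap, ENSBTAG00000045929, was near 0 in at least 1 heifer of every group. In the PUFA_Low group its lowest, median and highest values were 0, 12.0 and 43.8 CPM, in the PUFA_High group 0, 11.3 and 39.9 CPM, in the CON_Low group 0, 15.1 and 59.2 CPM, and in the CON_High group 0, 17.4 and 43.3 CPM. The 4 groups overlapped over almost their whole range. It stood at or under 0.1 CPM, with at most 1 count, in 5 of 15 PUFA_Low heifers, 2 of 17 PUFA_High, 3 of 14 CON_Low and 1 of 14 CON_High heifers, and no heifer lay between this level and 4.08 CPM. Where it was detected above 0.1 CPM, its median was 19.0 CPM in 10 PUFA_Low heifers, 12.5 in 15 PUFA_High, 17.3 in 11 CON_Low and 17.9 in 13 CON_High heifers. Its gap of 0.91 between means of log2 values was to the CON_Low group, for which the model of counts gave a log2 fold change of -0.54 (standard error 0.633). From PUFA_High to PUFA_Low the model gave -0.13.

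The gene ranked 2, ENSBTAG00000010987, varied little within the PUFA_Low group. Its lowest, median and highest values were 2.96, 5.63 and 7.54 CPM in the PUFA_Low group, 3.09, 10.2 and 25.1 CPM in the PUFA_High group, 4.04, 10.2 and 29.3 CPM in the CON_Low group and 3.18, 10.2 and 16.8 CPM in the CON_High group. The PUFA_Low heifers lay in a narrow band, whose highest heifer was below the median of each of the other groups, although the lowest heifers of those groups reached into it. The mean was 5.56 ± 1.16 CPM (SD, n = 15) in the PUFA_Low group, against 11.1 ± 5.44 (SD, n = 17), 11.2 ± 6.25 (SD, n = 14) and 10.5 ± 4.06 (SD, n = 14) in the PUFA_High, CON_Low and CON_High groups.

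**Figure D1:**
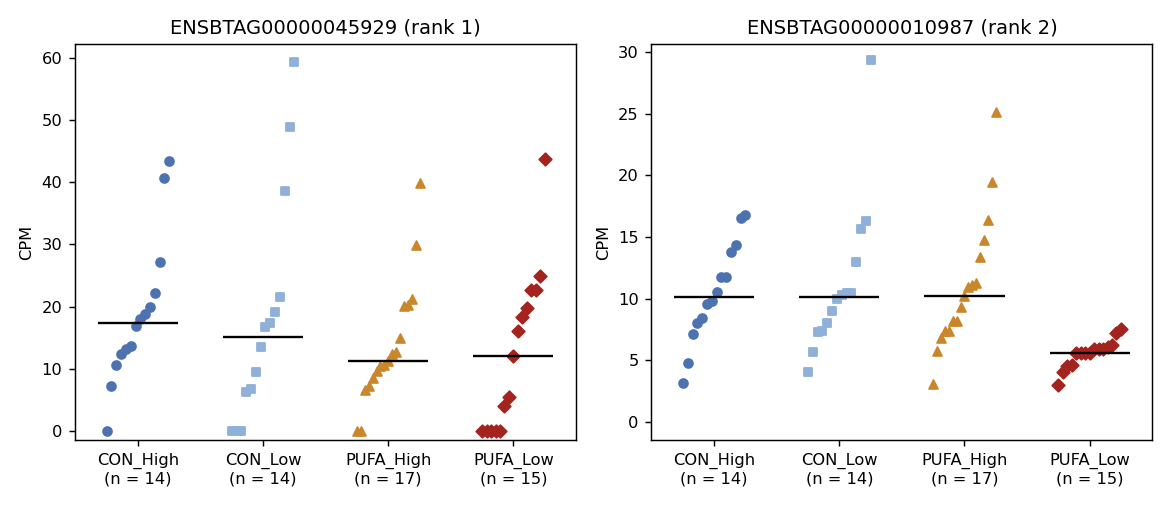
Abundance in CPM of the 2 genes with the largest gap in each of the 60 heifers, sorted within groups; each point is 1 heifer and the black line is the group median. ENSBTAG00000045929 was at or near 0 in 5 of 15 PUFA_Low, 2 of 17 PUFA_High, 3 of 14 CON_Low and 1 of 14 CON_High heifers. It overlapped across groups elsewhere, and ENSBTAG00000010987 did not exceed 7.54 CPM in the PUFA_Low group.

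The gene ranked 3 was spread widely in every group, with 0.650, 7.13 and 21.2 CPM as its lowest, median and highest values in the PUFA_Low group, 5.47, 14.6 and 49.6 CPM in the PUFA_High group, 5.55, 14.2 and 28.1 CPM in the CON_Low group and 2.14, 13.6 and 34.5 CPM in the CON_High group. Its highest PUFA_Low heifers were above the medians of the other groups. The gene ranked 4, by contrast, did not reach those medians in any PUFA_Low heifer. It had 14.4, 22.5 and 36.3 CPM as its lowest, median and highest values in the PUFA_Low group, against 13.3, 46.3 and 74.6 CPM in the PUFA_High group, 12.4, 46.3 and 69.8 CPM in the CON_Low group and 12.4, 46.6 and 75.8 CPM in the CON_High group. The other 3 medians were nearly equal, and each of the other groups held a heifer lower than any in the PUFA_Low group. The gene ranked 7 had 42.7, 63.7 and 103 CPM in the PUFA_Low group, against 30.8, 102 and 170 CPM in the PUFA_High group, 66.0, 107 and 138 CPM in the CON_Low group and 33.0, 112 and 211 CPM in the CON_High group. Here the lowest heifers belonged to the PUFA_High and CON_High groups, and the highest PUFA_Low heifer was above the PUFA_High median.

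No gene of the 100 separated the PUFA_Low heifers from all others. The number of PUFA_Low heifers below the lowest of the other 3 medians ranged from 7 to 15 of 15, with a median of 13. For 99 of the 100 genes the PUFA_Low median was below the medians of the other 3 groups. The ranking on group means makes such medians likely, so these counts describe the selection. The matching count over the eligible genes is not given. A median of 2 of 14 CON_High heifers (range 0 to 4) lay below the PUFA_Low median of a gene.

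The heifers of the PUFA_Low group differed among themselves in how low the genes were. For each heifer the deviation of each gene from its mean over the 60 heifers was averaged over the 100 genes, as a description of the selected genes. This average ranged from -1.07 to 0.22 in the PUFA_Low group with a median of -0.60, from -0.68 to 0.66 in the PUFA_High group with a median of 0.24, from -0.26 to 0.47 in the CON_Low group with a median of 0.22, and from -0.94 to 0.68 in the CON_High group with a median of 0.26. Of the 15 PUFA_Low heifers, 10 lay below every CON_Low heifer, 5 below every PUFA_High heifer and 3 below every CON_High heifer. In replicate 8, the lowest of the group at -1.07, 96 of the 100 genes were below their mean, and in replicate 12, at -0.98, 98 were. In replicates 4 and 9, at 0.03 and 0.22, 51 and 33 genes were.

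A few heifers of the other groups were as low. CON_High replicate 11 stood at -0.94 with 92 genes below their mean, CON_High replicate 9 at -0.68 with 81 and PUFA_High replicate 4 at -0.68 with 83. No CON_Low heifer was below the PUFA_Low median. The 100 genes together took 0.191% ± 0.0698 of all counts in the PUFA_Low group (SD, n = 15), 0.334% ± 0.0685 in the PUFA_High group (SD, n = 17), 0.307% ± 0.0460 in CON_Low heifers (SD, n = 14) and 0.301% ± 0.0950 in CON_High heifers (SD, n = 14).

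**Figure D2:**
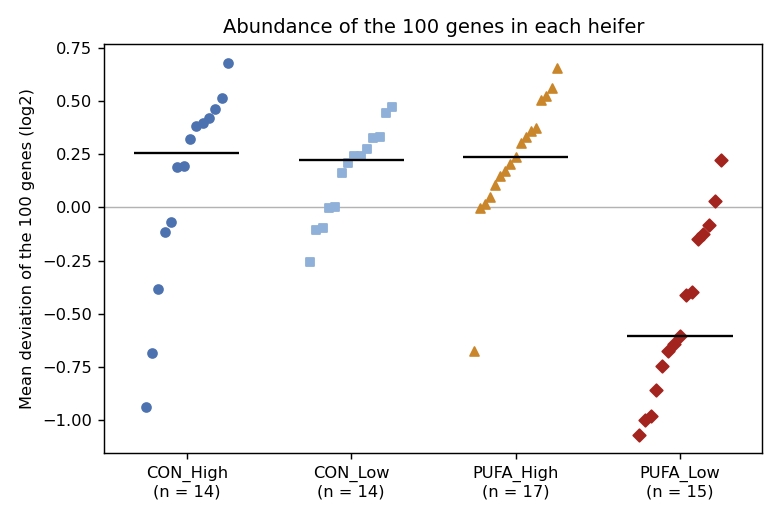
Mean deviation of the 100 genes from their average over all heifers (log2) in each of the 60 heifers, by dietary group; each point is 1 heifer and the black line is the group median. The PUFA_Low median of -0.60 lies below the other 3, and 2 CON_High heifers and 1 PUFA_High heifer lie below it.

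Library codes in the labels begin with 1 of 6 prefixes, which the labels do not explain. Each prefix covered 10 heifers, with 2 or 3 of the PUFA_Low group. In prefix 3, all 100 genes had a PUFA_Low mean below the other 3 means. There were 91 such genes in prefix 6, 81 in prefix 1, 71 in prefix 2, 63 in prefix 5 and 41 in prefix 4, where the median gap was -0.09. Prefix 4 held CON_High replicates 8 and 9, at -0.38 and -0.68, and prefix 5 held CON_High replicate 11. Against the CON_Low group alone, 78 to 100 genes were lower in the PUFA_Low heifers of each prefix, and against the PUFA_High group 69 to 100. Against the CON_High group there were 48 in prefix 4, 66 in prefix 5 and up to 100, in prefix 3. The values in each prefix are part of those that ranked the genes, so the counts by prefix describe the selection. The matching shares of all genes are not given.

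The comparisons that leave out the PUFA_Low group were not ranked on, although taking the lowest of 3 means favours genes in which those 3 lie close. Between planes in control heifers, 0 of the 100 genes were called (edgeR's quasi-likelihood test; background 0% of 14363 genes), and DESeq2 also called 0. Their smallest adjusted p-value was 0.911, 1 gene had an unadjusted p-value under 0.05 (4.91% of all genes did), and the median log2 fold change was 0.01. For the gene ranked 2 it was 0.10 (standard error 0.225, adjusted p = 0.976, edgeR). Between supplements on the high plane, 0 of the 100 were called (background 0%) by edgeR and 0 by DESeq2, and 3 had an unadjusted p-value under 0.05, all higher with n-3 PUFA, against 10.5% of all genes. The smallest adjusted p-value was 0.352. In this comparison 75 of the 100 genes had a log2 fold change above 0, with a median of 0.13, while 50.3% of all genes tested were below 0.

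The 100 genes varied more between heifers of the same group than other genes did. Their SD within groups had a median of 0.60 on the log2 scale, from 0.27 to 2.61, against a median of 0.33 over the eligible genes. The largest belonged to ENSBTAG00000045929 and the smallest to the gene ranked 38. They were also counted at lower depth, with a median mean of 14.4 CPM against 26.2 over the eligible genes, and a mean count per heifer from 24.3 to 2302 with a median of 169. CPM is not scaled to gene length, so these values describe the precision of counting and not the relative level of transcripts. The 3 genes with the most counts, ranked 99, 20 and 44, had gaps of 0.47, 0.61 and 0.53, and the 3 with the fewest, ranked 12, 40 and 59, had gaps of 0.65, 0.54 and 0.51. The ranking used a log2 gap that was not scaled by the SD, which favours variable genes and genes with few counts. Both differences from the eligible genes, in SD and in depth, therefore describe the selection.

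Most of the genes rose and fell together among heifers on the same diet. After the mean of each dietary group had been removed, 92.02% of the 4950 pairs of genes were positively correlated over the 60 heifers, with a median r of 0.38. The ranking did not use this variation, but the limits on the maximum and on the correlation with ENSBTAG00000008471 did, for all eligible genes. Over all pairs of the 10340 eligible genes 49.56% were positive and the median r was -0.0034. Genes measured in the same libraries share depth and RNA composition, and these correlations are a description. Joining genes by average linkage down to a mean r of 0.3 gave 1 block of 84 genes with a median r of 0.47, a second of 7 genes with a median r of 0.38 and 9 genes outside both. Between the blocks of 84 and 7 genes the median r was 0.21.

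The genes that followed the others most closely were those ranked 43, 41, 82, 81 and 83, with correlations of 0.94, 0.88, 0.88, 0.87 and 0.87 with the mean of the others. The lowest values were -0.18 for the gene ranked 26, -0.05 for that ranked 22, -0.0025 for that ranked 19, 0.04 for that ranked 12 and 0.10 for ENSBTAG00000045929. The gene ranked 2 had 0.48 and belonged to the block of 84. Averaged over the 84 genes, the deviation was -0.49 ± 0.427 in the PUFA_Low group (SD, n = 15) and 0.08 ± 0.534 in the CON_High group (SD, n = 14). Over the other 16 genes it was -0.56 ± 0.426 and 0.22 ± 0.277. The lowest CON_High heifer stood at -1.09 over the block, and the lowest over the rest at -0.24.

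**Figure D3:**
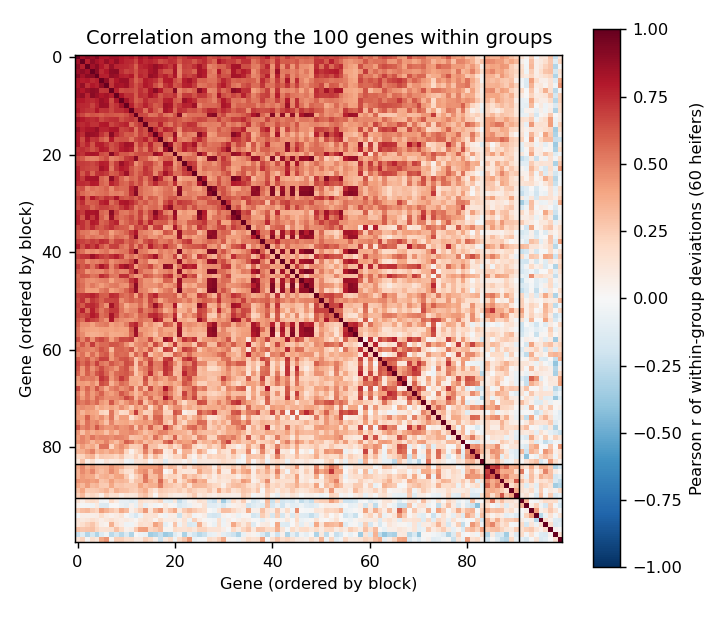
Pearson correlation between each pair of the 100 genes over 60 heifers, after the mean of each dietary group was removed; both axes list the genes by block, and black lines mark the ends of the blocks of 84 and 7 genes. The block of 84 is positive almost throughout, with a median r of 0.47, and the last 9 genes are near 0 with most others.

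This shared variation ran with a measure of the libraries, the percentage of counts taken by the 100 most abundant genes (the share), none of which is among the 100 genes described here. The share was 25.8% ± 3.31 (SD, n = 15) in the PUFA_Low group, 20.8% ± 1.91 (SD, n = 17) in the PUFA_High group, 21.8% ± 2.15 (SD, n = 14) for CON_Low and 22.0% ± 2.99 (SD, n = 14) for CON_High heifers. It was higher in the PUFA_Low than in the PUFA_High group (two-sided permutation test with 100000 resamples, p = 4e-05, adjusted p = 0.00048 over 12 tests). It was also higher than in the CON_Low group (permutation test, p = 0.00088, adjusted p = 0.00528). The PUFA_Low heifers with the highest shares, replicates 10 and 1 at 30.6% and 30.4%, had deviations of -0.75 and -0.60. Replicates 9 and 11, with the lowest at 21.4% and 21.7%, had 0.22 and -0.08. CON_High replicate 11, the lowest of the controls, had the highest share of that group at 28.2%, and PUFA_High replicate 4, the lowest of its group, likewise had the highest at 24.7%. Some heifers did not follow this. PUFA_High replicate 9, with a share of 24.4%, had a deviation of 0.10, and CON_Low replicate 4, with 24.5%, had 0.28.

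**Figure D4:**
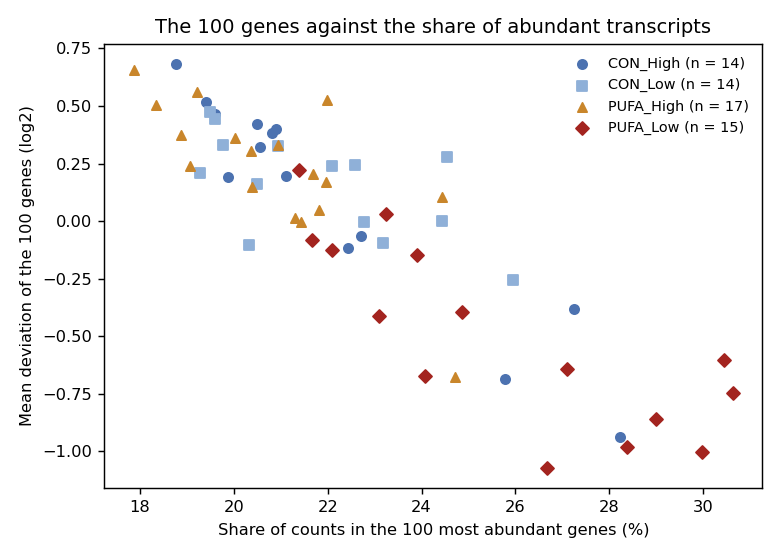
Mean deviation of the 100 genes (log2) against the share taken by the 100 most abundant genes (% of counts), 1 point for each of the 60 heifers with the dietary group given by colour and shape. The highest shares, up to 30.6%, belong to PUFA_Low heifers with values below 0, and CON_High replicate 11 at 28.2% lies at -0.94.

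To see whether this held where the ranking had not looked, the slope of each of the 14363 genes on the share was tested among control heifers alone, with the means of both control groups removed. Slopes are log2 changes for 2.63 percentage points of share, the SD within groups. A negative slope was called for 73 of the 100 genes (edgeR's quasi-likelihood test, adjusted p under 0.10), where 20.3% of all genes were called negative, and 1 gene, ranked 26, had a positive slope that was called (0.15, standard error 0.068, adjusted p = 0.0847), where 22.2% of all genes were called positive. The median slope of the 100 genes was -0.31, from -0.72 to 0.15, against 0.0036 over all genes, and 97 were below 0, where 49.3% of all genes were. All 73 belonged to the block of 84, which was drawn from correlations that included these control heifers. Of the eligible genes, 23.2% were called negative. For the gene ranked 2 the slope was -0.57 (standard error 0.0821, adjusted p = 9.3e-06), and for ENSBTAG00000045929 it was -0.23 (standard error 0.328, adjusted p = 0.625).

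The 2 control groups were also fitted apart, a choice made after seeing the data. In the CON_High group alone (n = 14) 77 of the 100 genes had a negative slope that was called (15.2% of all genes). In the CON_Low group alone (n = 14) there were 9 (1.5% of all genes), with a median slope of -0.21 over the 100. The difference between the 2 groups was not tested. The share reached 28.2% in the former and 25.9% in the latter. Without CON_High replicates 8 and 11, whose shares lay farthest from the control median, 61 of the 100 genes were called in the control heifers (15% of all genes).

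Within the PUFA_Low group, in which the genes were already low, a negative slope was called for 61 of the 100 genes over the 15 heifers (background 11.4%), with a median slope of -0.26, and 97 slopes were below 0 (53.8% of all genes). Of these 61, 54 belonged to the block of 84. Also, 50 of the 61 had been called in the control heifers, which is 82.0% of the 61 and 68.5% of the 73. Over all genes, 1040 were called in both, 63.3% of those called in the PUFA_Low group and 35.7% of those called in control heifers. ENSBTAG00000010987, called in the control heifers with a slope of -0.57, was not called within the PUFA_Low group. Its slope there was -0.06 (standard error 0.0755, adjusted p = 0.631, edgeR). Among the 17 PUFA_High heifers, whose shares spanned 17.9% to 24.7%, 17 of the 100 genes were called negative (background 2.39%), with a median slope of -0.32 and 87 slopes below 0 (49.6% of all genes). Without PUFA_High replicate 4 there were 3 (0.299% of all genes), and without PUFA_High replicate 14 there were 37 (5.62% of all genes). In all, 84 of the 100 genes had a negative slope called in at least 1 of the 3 sets of heifers (24.8% of all genes) and 11 in all 3 (1.16% of all genes). The differences between these sets were not tested.

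**Figure D5:**
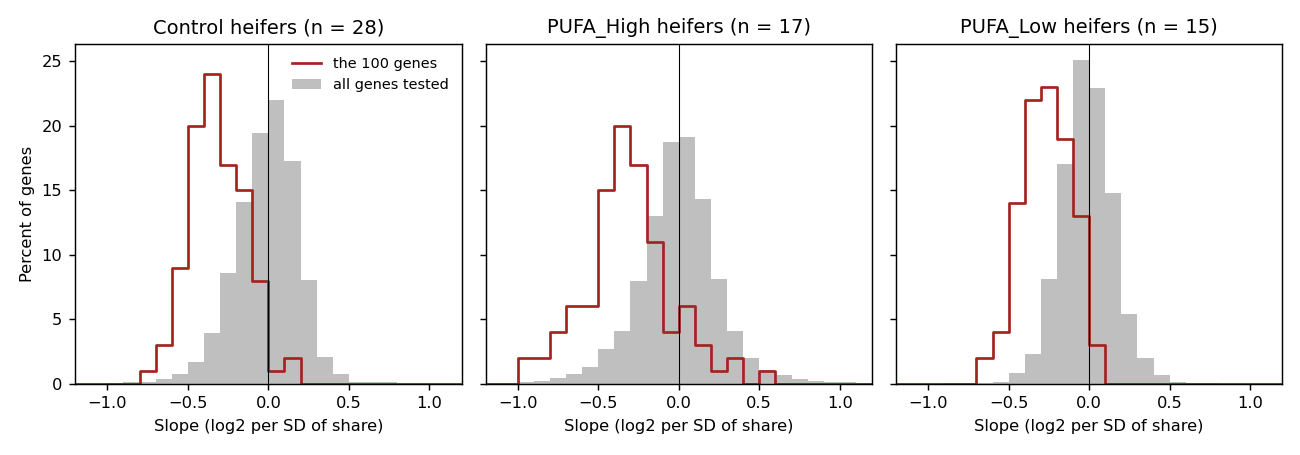
Distribution of the slopes on the share of abundant genes (log2 change for 1 within-group SD, 2.63 percentage points) for all 14363 genes (grey bars) and the 100 genes (red line), as percent of genes in bins of 0.1; the outermost slopes are not drawn. The 100 genes lie to the left of all genes in each set, with medians of -0.31 in control, -0.32 in PUFA_High and -0.26 in PUFA_Low heifers.

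With the share as a covariate in the model of all 60 heifers, the median log2 fold change of the 100 genes from PUFA_High to PUFA_Low was -0.16 in place of -0.71, against -0.0070 over all genes. Of the 100, 84 were below 0 (51.6% of all genes), 14 were lower with an unadjusted p-value under 0.05 (7.27% of all genes) and 1 was called lower (0.258% of all genes). The ranking used this contrast, and these counts are a description. Between supplements on the low plane the median was -0.19 in place of -0.59. The log2 fold change from PUFA_High to PUFA_Low was -0.30 for the gene ranked 2, and 0.07 for ENSBTAG00000045929. The share comes out of those same libraries and is itself different between groups, so a dietary effect expressed through it cannot be told apart from a difference in composition of the samples. Total counts were not shown to differ between PUFA_Low and PUFA_High (permutation test, p = 0.0901, adjusted p = 0.216). The number of genes detected was 16561 ± 131 in the PUFA_Low group (SD, n = 15) and 16719.5 ± 132 in the CON_Low group (SD, n = 14; permutation test, p = 0.00332, adjusted p = 0.0133). Against the PUFA_High group, with 16667 ± 131 (SD, n = 17), the difference did not pass an adjusted p-value of 0.05 (permutation test, p = 0.0294, adjusted p = 0.0883). The part of total counts and detected genes in the lower abundance of the 100 genes was not tested beyond the fit with total count as a covariate.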

How the data were processed

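The authors aligned 100 bp single-end reads with TopHat2 2.0.9 to UMD3.1, counted them per Ensembl gene with HTSeq 0.5.4p5 and deposited raw counts, without normalization, for 60 heifers and 24616 genes. The strand setting and the treatment of reads from near-identical genes are not given in the sources used here. Libraries were grouped by their titles, and 0 columns were left unassigned. Counts were filtered by filterByExpr, scaled by TMM and fitted with edgeR 4.0.16 (R 4.3.3) quasi-likelihood models over all 60 heifers, with Benjamini-Hochberg adjustment over 14363 genes. Slopes were fitted in the heifers named. Genes were called where the adjusted p-value was under 0.10 and, except for slopes, the fold change exceeded 1.5, and the stricter 0.001 of the study was an alternative. The 100 genes, lists and tests were chosen with earlier results of these data known. Genes were to be named by rank and symbol, and with 0 identifiers paired to symbols the 2 of largest gap are named. The gene lists and cell type markers could not be applied for the same reason. DESeq2 1.42.0, other scale factors, filters, thresholds, blocks and covariates were alternatives. Models were tested on simulated data. The 423 pairs of libraries within groups differed by a chi-square per gene of at least 14.8, and each was counted as its own sample. Each library came from 1 heifer, so p-values measure the spread between heifers.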

Additional observations from a re-analysis of the deposited data

Results flagged for a closer look

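The effect of the plane of nutrition differed between n-3 PUFA and control heifers for 50 of the 100 genes (edgeR's quasi-likelihood test of the interaction). For all 50 the effect, low minus high plane, was lower under n-3 PUFA, as was called for 3.58% of all genes tested. The interaction contains the PUFA_Low mean on which the genes were ranked, so this count describes the selection. For ENSBTAG00000010987 the difference between the plane effects was -1.10 on the log2 scale (standard error 0.313), also a value the ranking used.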

How the results depend on the processing

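Comparisons with the PUFA_Low group describe the selection under every setting. The counts of genes lower than in the PUFA_High group, lower than in the CON_Low group and with a lower plane effect were 84, 43 and 50. At an adjusted p-value under 0.001 they were 19, 0 and 0 (edgeR; 0.48%, 0% and 0% of all genes), and 96, 81 and 63 had an unadjusted p-value under 0.05 (35.6%, 26.5% and 29.1% of all genes). With the share of abundant genes as a covariate they were 1, 0 and 0 (edgeR; 0.258%, 0% and 0% of all genes), and 14, 17 and 14 were lower at an unadjusted p-value under 0.05 (7.27%, 2.72% and 2.37%); the cause was not tested. With total count as a covariate the 3 counts were 60, 36 and 37 (edgeR, 2.39%, 0.863% and 2.72% of all genes). Without a fold limit the count against the CON_Low group was 65 (7.74%). With the PUFA_Low and PUFA_High labels exchanged, all 3 counts of lower genes were 0 by edgeR (0 unadjusted; 2.44%, 0.0139% and 1.08% of all genes were called lower), 84 genes were higher between planes (3.17%), and 32 were called between supplements on the high plane, all lower (0.675%), which follows from the exchange of labels. DESeq2 gave 84, 44 and 51 (3.41%, 1.11% and 3.55% of the genes it tested).

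Among PUFA_High heifers, 17 of the 100 genes had a negative slope called by edgeR (2.39% of all genes). With the limit on adjusted p lowered to 0.05 this count fell to 9 (0.606%), and with the share of 50 genes to 3 (0.181%). Without PUFA_High replicates 4 and 9, 0 were called (0% of all genes). In that fit 23 of the 100 had a negative slope by unadjusted p-value. The matching share of all genes is not given, so the 23 cannot be set against a background. CON_Low heifers alone gave 9 (1.5%) in place of 73 (20.3%). Leaving out single heifers, choices made after seeing the data for the slopes, gave 62 to 76 in control heifers (16.4% to 20.9% of all genes), 3 to 37 in the PUFA_High group (0.299% to 5.62%) and 46 to 64 in the PUFA_Low group (8.09% to 14.5%), and kept 76 to 100 of the genes in the selection. Group medians in place of means kept 47.

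With the replicate number as a block the counts were 67, 39 and 42 (2.34%, 0.78% and 2.21% of all genes), and 0 in both comparisons without the PUFA_Low group (0% of all genes). The numbers name heifers and did not pair them (mean r -0.053 over 85 same-numbered pairs and 0.0046 over others). The fit to only the groups compared was not run for the interaction. Of the 100 genes, 76 had at least 10 counts in every library.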

Other observations

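The variation shared by the 100 genes was not confined to them. Of the 14263 other genes tested, 438 had a within-group correlation above 0.7 with the mean of the 100, up to 0.94, and 550 had one below -0.7, down to -0.89. The points are the same 60 heifers, and the values are a description.

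Which genes were among the 100 depended on single heifers. With each heifer left out in turn, 41 of the 100 genes were taken every time. The gene ranked 1 lost that place in 10 of the 60 repeats, each of which left out a CON_Low or a PUFA_Low heifer. The median gap of the 100 genes, 0.52 with all heifers, ranged from 0.49 without PUFA_Low replicate 12 to 0.58 without PUFA_Low replicate 9.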
